A study of Mus musculus with 8 samples.

Results

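The genes described here are those whose transcript was clearly higher in E11.5 primordial germ cells of the mouse than after 3 days of culture, at day 6 and in embryonic germ cells. The choice is on this relative drop: some of the genes were still bright after it, and some were of middling brightness before it. A gene was taken where its lowest log2 intensity on the 2 primordial germ cell arrays exceeded its highest on the other 6 arrays by at least 1.2 (2.30-fold), with a mean log2 intensity of at least 5 (an intensity of 32) in primordial germ cells. Of 14030 genes with a named probe measured on all 8 arrays, 84 met this rule, each through 1 probe. The genes were chosen by the intensities of primordial germ cells against the other groups, so these differences are described and not tested. The order of the other 3 groups among themselves was not used in the choice, and it is tested. Their highest array did enter the choice, and with it the spread between arrays, which the tests pool over all 8 arrays. Shares of the 84 genes and of all probes are therefore set side by side as a description and are not tested against each other.

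RNA of cells carrying a Nanog-GFP reporter was measured on 8 one-colour oligonucleotide arrays, 2 per group. Per the series' design text, candidate pluripotent cells were purified by fluorescence-activated sorting during culture; the labels do not say which gate gave each sample. The groups are germ cells taken from the embryo (E11.5 PGC), cells after 3 days (Day3) and 6 days (Day6) of culture, and embryonic germ cells (EG), the pluripotent cells that germ cells can give rise to in culture. The inhibitor mixture 2i+A83 is named in the titles of all samples but E11.5 PGC. It holds 1 µM PD325901, which blocks the kinase MEK, 3 µM CHIR99021, which blocks the kinase GSK3, and 250 nM A83-01, which blocks receptors of Activin and Nodal. The labels list it with a medium of Knockout DMEM, 15% KSR serum replacement, LIF and bFGF, in the same words for every sample, E11.5 PGC included. No age of culture is given for EG, and nothing says how many EG lines, animals or cultures stand behind the arrays. All p-values therefore measure the spread between these samples, which may be technical.

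Primordial germ cells are the embryonic precursors of eggs and sperm. By mid-gestation they have reached the genital ridge, guided by chemokines, and they keep pluripotency genes such as Nanog active beside a germ cell programme of RNA-binding proteins, germ granule components and meiotic genes in waiting. In culture with LIF and growth factors or kinase inhibitors some of them turn into embryonic germ cells, which self-renew like embryonic stem cells. The conversion needs no added gene, and it is known as a case in which a cell restricted to the germ line regains pluripotency.

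All 12 germ cell markers examined lay above the floor on both E11.5 PGC arrays, as the label of that group implies, but they also did so on the other 6 arrays, so this check does not set E11.5 PGC apart. One of the 12, Dnd1, is among the 84 genes. The floor is an intensity of 4.24, the lower quartile of the probes' mean levels, under which the order of values is not read. Each array had values for 21126 to 22404 of its 23473 probes, scaled to a median of about 20. Going by the array names there are 2 series: series A holds both EG arrays and the first replicate of each other group, and series B the second replicates of those other groups. Of 10 markers of gonadal somatic cells, the 6 measured on all arrays summed to 38.6 to 55.4 on every array. Lhx9, left out of this sum for a missing value, was at 8.47 on the lower of its E11.5 PGC arrays. It was at 1.26 to 3.78, under the floor, on the later arrays that measured it. Nr5a1, Gata4 and Amh, left out likewise, overlapped between E11.5 PGC and the later arrays. The part of gonadal somatic cells in the values of the 84 genes was not tested. Markers of fibroblasts summed to 1106 on Day6 array 1, mostly Thy1 at 747, against 57.3 to 390.4 on the other arrays. Col1a1 (43.5) and Col1a2 (129) were also highest on Day6 array 1, while Col3a1 (137) and Dcn (173) were highest on Day3 array 2. In bulk samples such as these, fewer cells of a type and less RNA per cell cannot be told apart.

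Across the 84 genes the median intensity was 121 and 124 on the E11.5 PGC arrays, 23.6 and 20.02 on the Day3 arrays, 11.9 and 13.7 on the Day6 arrays, and 17.1 and 16.6 on the EG arrays. The genes were thus brighter than most in E11.5 PGC, where all named probes had medians of 32.4 and 33.5, and dimmer than most afterwards. The median log2 difference from E11.5 PGC was -2.34 at Day3, -2.95 at Day6 and -2.52 in EG, against -0.14, -0.18 and -0.19 for all named probes. The lowest of the 3 later groups was Day3 for 7 genes, Day6 for 53 and EG for 24. The highest of the 6 later arrays was a Day3 array for 53 genes, a Day6 array for 10 and an EG array for 21. Neither count was made over all probes, so they are not read as a trait of the 84 genes. They also include 19 genes with a later array under the floor.

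The gap between the lowest E11.5 PGC array and the highest other array had a median of 1.64 on the log2 scale (3.12-fold) and ran from 1.202 to 5.997. It was at least 2 in 24 genes and at least 3 in 6. Just inside the threshold lay Gstm3 and Exd1 with 1.202, Rgl2 and Gramd3 with 1.21 and Riox2 with 1.22. Just outside lay Nmi with 1.199, Sestd1 with 1.196, and Mov10l1, Lhpp and Il17rd with 1.17. The 2 E11.5 PGC arrays differed by a median of 0.25 over the 84 genes and by under 0.5 in 65 of them. Most of the genes kept a measurable level on the later arrays: 65 had no later array under the floor, and both arrays of a group were under it in 1 gene at Day3, 1 at Day6 and 3 in EG. Only Rnf170, a ubiquitin ligase, had a further probe, which was brighter and had a gap of 0.77, short of the rule.

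**Figure D1:**
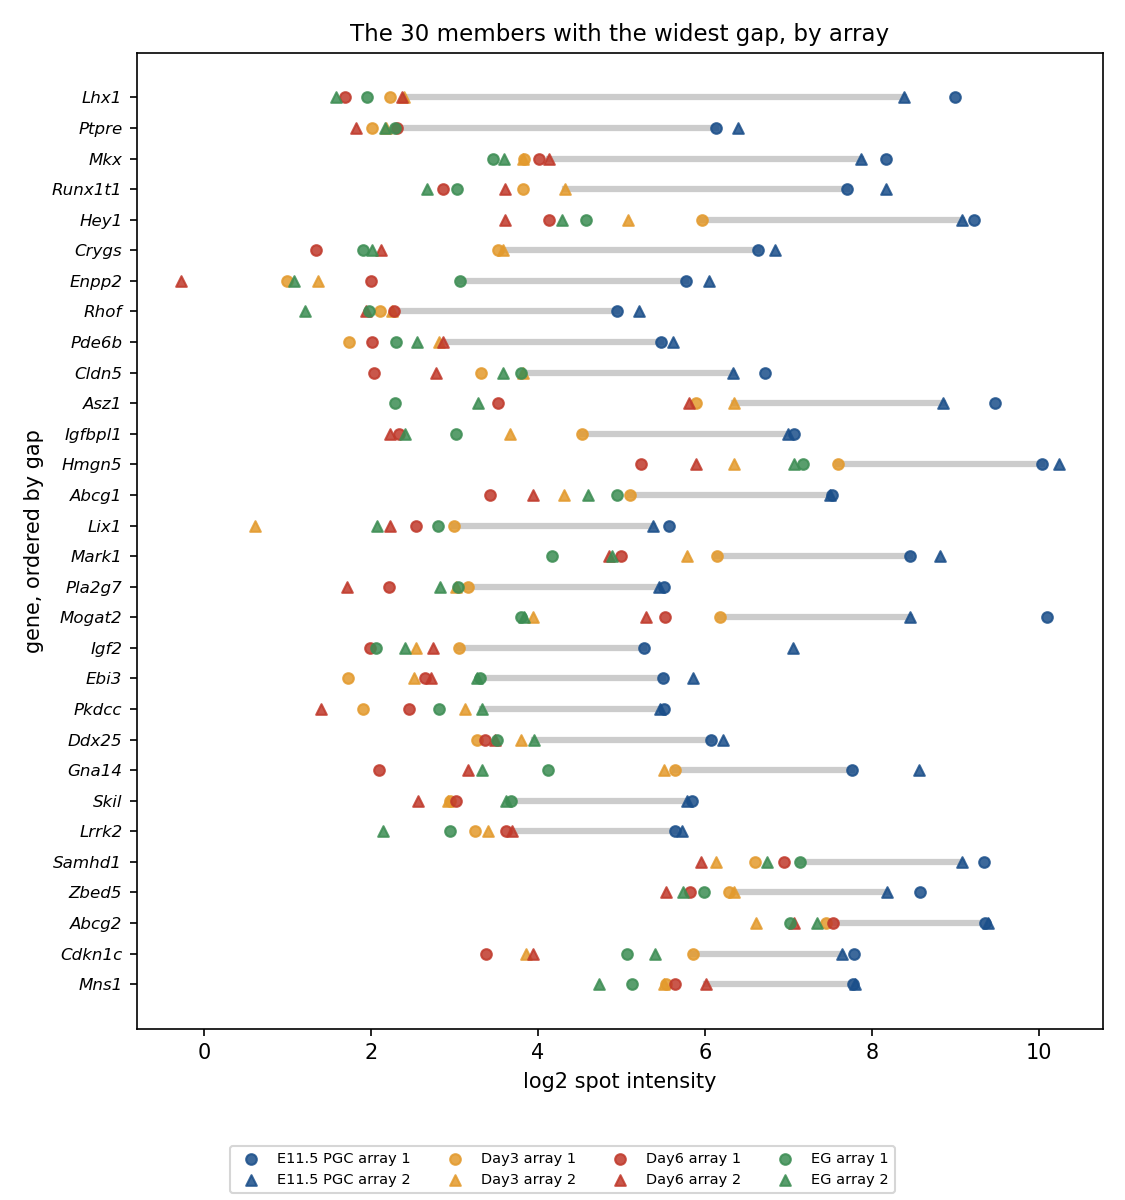
Log2 spot intensity (x axis) of the 30 genes with the widest gap (y axis, widest on top) on each of the 8 arrays, with colour for the group, circles for array 1 and triangles for array 2. Grey bars span the gap from the highest later array to the lowest E11.5 PGC array, from 5.997 in Lhx1 to 1.76 in Mns1, and the arrays to the left of the bar are the 6 later ones.

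Genes of germ cells, meiosis and sperm made up 11 of the 84, with geometric mean intensities in E11.5 PGC from 35.9 to 1824. This grouping by role, and the ones that follow, were made after the genes were known. Dnd1, an RNA-binding protein that germ cells need to survive, was the brightest of all 84, with intensities of 2140.0 and 1555 on the E11.5 PGC arrays, 568 and 288 on those of Day3, 43.02 and 30.7 on those of Day6 and 89.3 and 104 on those of EG. Both Day6 arrays lay far below both Day3 arrays, and both EG arrays lay above Day6. Asz1, a germ granule protein that protects the germ line from transposons, had 711 and 464 on the E11.5 PGC arrays, 59.3 and 81.5 on those of Day3, 11.53 and 56.01 on those of Day6 and 4.89 and 9.76 on those of EG. Day6 array 2 was near the Day3 arrays and Day6 array 1 was well below them; EG was lower than both. Cpeb1, which controls translation of stored mRNAs in germ cells and neurons, had 512 and 508 on the E11.5 PGC arrays, 131 and 216 on those of Day3, 14.9 and 21.7 on those of Day6 and 22.5 and 19.7 on those of EG. Day3 kept part of the level, and the Day6 and EG arrays overlapped at a low level. Stag3, a cohesin subunit of meiotic chromosomes, had 302 and 267 on the E11.5 PGC arrays, 107 and 91.8 on those of Day3, 27.02 and 36.8 on those of Day6 and 104 and 108 on those of EG, so that EG was near the Day3 level and Day6 was lower.

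The remaining germ cell genes were dimmer or changed less. Mns1, a structural protein of sperm flagella and motile cilia, had 219 and 224 in E11.5 PGC against 26.5 to 64.8 on the other 6 arrays. Ddx25, a testicular RNA helicase, had 67.5 and 74.6 in E11.5 PGC against 9.68 to 15.5 on the other 6 arrays. Zcwpw1, a reader of histone marks at meiotic breaks, had 129 and 121 in E11.5 PGC against 12.8 to 42.4 on the other 6 arrays. Exd1, a partner in piRNA production, Ldhc, the lactate dehydrogenase of testis, Spag1 and Enkur, both of sperm and cilia, had gaps of 1.202, 1.27, 1.54 and 1.38. As a group the 11 had median log2 differences from E11.5 PGC of -1.96 at Day3, -2.93 at Day6 and -2.56 in EG, so the shortfall was wider at Day6 than at Day3.

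Promoter sequences from RefSeq (mouse build GRCm38.p6, 250 bases before to 50 after the start of the gene) were found for 64 of the 84 genes. Those of Cpeb1 and Stag3 are shown because they hold the letters of motifs that keep germ cell genes silent in other cells: TCCCGC, the core bound by E2F6, and CACGTG, the E-box of MGA and MAX. The promoters of Ddx25 and Prkar2b also held both motifs and are not shown. Both strands were searched, the matches shown are in capitals, and the 2 motifs do not overlap. The Cpeb1 promoter is chr7:81454709-81455008 on the minus strand and that of Stag3 is chr5:138280259-138280558 on the plus strand, both written along the gene.
Cpeb1: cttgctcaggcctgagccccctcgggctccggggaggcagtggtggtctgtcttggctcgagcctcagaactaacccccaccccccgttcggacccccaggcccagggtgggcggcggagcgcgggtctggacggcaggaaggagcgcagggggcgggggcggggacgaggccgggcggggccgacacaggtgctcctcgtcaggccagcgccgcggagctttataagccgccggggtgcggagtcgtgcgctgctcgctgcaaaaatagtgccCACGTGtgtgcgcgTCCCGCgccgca
Stag3: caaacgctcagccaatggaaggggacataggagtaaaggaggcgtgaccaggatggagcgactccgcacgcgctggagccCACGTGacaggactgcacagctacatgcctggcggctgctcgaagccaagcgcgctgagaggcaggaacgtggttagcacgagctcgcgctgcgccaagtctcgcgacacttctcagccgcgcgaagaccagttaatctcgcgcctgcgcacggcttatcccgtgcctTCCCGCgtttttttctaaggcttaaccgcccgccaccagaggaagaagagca
In Cpeb1 the first matched bases lie 25 (CACGTG) and 39 (TCCCGC) bases into the gene, and in Stag3 they lie at -170 and -2 from the start. TCCCGC stood in 20 of the 64 promoters (31.25%), against 31.55% of the promoters of 11278 measured genes and 19.98% of all 32851 promoters. CACGTG stood in 9 of 64 (14.06%), against 9.42% and 7.15%. The median GC content was 60% in the 64 promoters and 59.67% in the measured genes, and a CpG ratio (observed over expected) of at least 0.6 was found in 38 of 64 (59.38%) against 61.76%. These shares are a description, and no test was made of them.

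Regulators of transcription, chromatin and splicing made up 13 genes, with E11.5 PGC means from 56.4 to 1125. The widest gap of all was that of Lhx1, a LIM homeobox factor of early embryos, germ cell precursors and kidney, with 513 and 335 on the E11.5 PGC arrays, 4.68 and 5.25 on those of Day3, 3.23 and 5.20 on those of Day6 and 3.87 and 2.997 on those of EG. Every later array lay near or under the floor, a gap of 63.9-fold. Its promoter, chr11:84525485-84525784 on the minus strand of GRCm38.p6, is shown because Lhx1 is known as a target of Nodal signalling in the early embryo. Capitals mark GTCTG, the short element bound by SMAD proteins, found on the opposite strand and therefore written CAGAC, with its first base at -60.
Lhx1: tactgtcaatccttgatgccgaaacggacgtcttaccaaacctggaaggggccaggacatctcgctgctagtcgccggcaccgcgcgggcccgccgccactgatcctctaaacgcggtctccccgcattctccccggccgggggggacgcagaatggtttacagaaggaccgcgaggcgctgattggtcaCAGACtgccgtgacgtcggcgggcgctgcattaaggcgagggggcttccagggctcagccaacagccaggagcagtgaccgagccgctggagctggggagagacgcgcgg
GTCTG stood in 31 of 64 promoters (48.44%) against 47.94% of measured genes and 49.59% of all promoters, and the FOXH1 motif TGTNNATT in 0 of 64 against 7.99% and 12.21%.

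Mkx (Mohawk), a homeobox factor of tendon and muscle, had 288 and 234 on the E11.5 PGC arrays, 14.3 and 14.1 on those of Day3, 16.1 and 17.5 on those of Day6 and 10.99 and 12.1 on those of EG. All 6 later arrays lay between 10.99 and 17.5. Runx1t1, a corepressor known as ETO, had 209 and 288 on the E11.5 PGC arrays, 14.1 and 20.1 on those of Day3, 7.30 and 12.2 on those of Day6 and 8.21 and 6.40 on those of EG, and Day6 and EG lay below Day3. Hey1, a repressor downstream of Notch, had 596 and 539.9 on the E11.5 PGC arrays, 62.4 and 33.9 on those of Day3, 17.6 and 12.2 on those of Day6 and 23.9 and 19.6 on those of EG, with Day3 above the other later arrays. Hmgn5, a nucleosome-binding protein, was the brightest of these regulators, with 1048 and 1207 on the E11.5 PGC arrays, 194 and 81.4 on those of Day3, 37.7 and 59.3 on those of Day6 and 144 and 134 on those of EG; its EG arrays were above both Day6 arrays. Esrp1, the splicing regulator of epithelial cells, had 545 and 554 on the E11.5 PGC arrays, 164 and 71.4 on those of Day3, 7.63 and 6.15 on those of Day6 and 147 and 48.9 on those of EG. Day6 was the low point on both arrays, and the EG arrays overlapped those of Day3.

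Msx2, a homeobox factor induced by BMP, had 227 and 197 on the E11.5 PGC arrays, 61.7 and 15.2 on those of Day3, 40.9 and 30.03 on those of Day6 and 5.85 and 6.41 on those of EG; the Day3 and Day6 arrays overlapped and both EG arrays were far lower. Id4, an inhibitor of helix-loop-helix factors and also a BMP target, had 156 and 172 on the E11.5 PGC arrays, 30.6 and 28.7 on those of Day3, 43.1 and 32.3 on those of Day6 and 47.8 and 45.7 on those of EG. It was lowest at Day3, with both Day6 arrays above both Day3 arrays and both EG arrays above Day6. Skil (SnoN), a repressor of SMAD proteins and itself induced by them, had 57.8 and 55.1 in E11.5 PGC against 5.91 to 12.8 on the other 6 arrays. Zbed5, Riox2, Hinfp and Zfp105 were bright in E11.5 PGC, from 208 for Hinfp on array 2 to 640 for Riox2 on array 1, and kept an intensity above 30 on every later array.

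**Figure D2:**
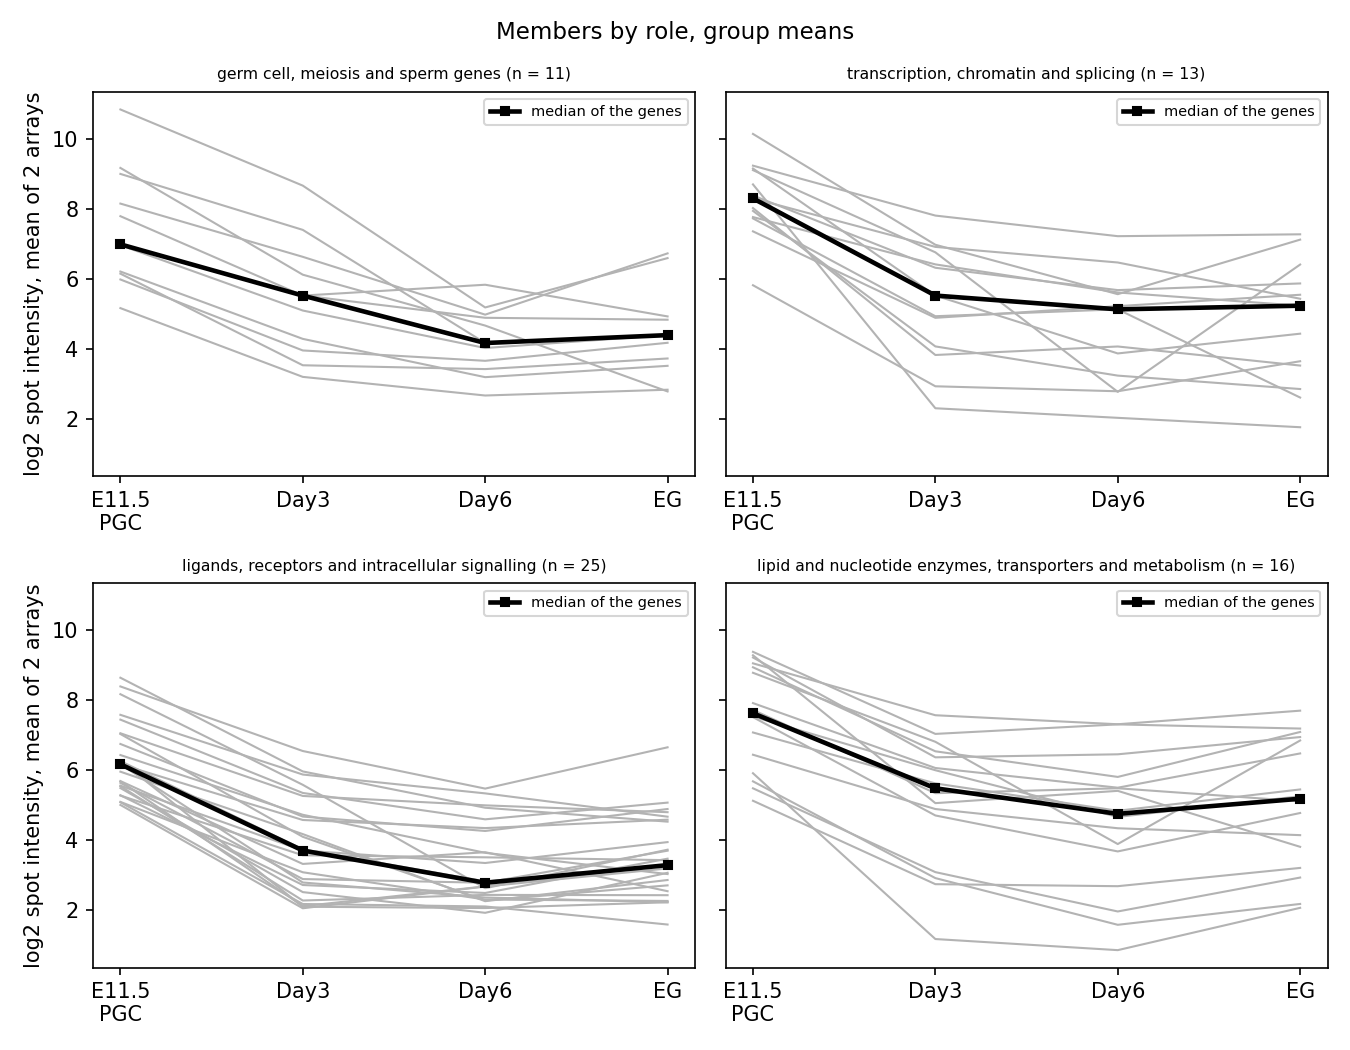
Mean log2 spot intensity of the 2 arrays of each group (y axis) in E11.5 PGC, Day3, Day6 and EG (x axis) for the 4 larger groups of genes by role. Grey lines are single genes and black squares their median: the median differences from E11.5 PGC at Day3 run from -1.96 to -2.79, and all 4 black lines are lowest at Day6.

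Ligands, receptors and intracellular signalling made up 25 genes, the dimmest of the larger groups, with E11.5 PGC means from 32.2 to 398 and a median of 71.9. Among the ligands, Igf2, a growth factor of embryos that is expressed from the paternal allele, had 38.8 and 133 on the E11.5 PGC arrays, 8.30 and 5.80 on those of Day3, 3.97 and 6.68 on those of Day6 and 4.16 and 5.30 on those of EG. Its 2 E11.5 PGC arrays were 1.78 apart on the log2 scale, the widest spread of the 84 genes, and both lay above every later array. Ebi3, a subunit of the cytokines IL-27 and IL-35, had 45.1 and 58.03 on the E11.5 PGC arrays, 3.31 and 5.70 on those of Day3, 6.27 and 6.58 on those of Day6 and 9.93 and 9.62 on those of EG, with Day6 above Day3 and EG above Day6. Igfbpl1, a secreted relative of IGF-binding proteins, had 134 and 128 on the E11.5 PGC arrays, 23.1 and 12.7 on those of Day3, 5.04 and 4.69 on those of Day6 and 8.11 and 5.29 on those of EG. Both Day6 arrays were below both Day3 arrays, and both EG arrays stood in between. Pkdcc, a secreted tyrosine kinase, had 45.7 and 44.1 in E11.5 PGC against 2.63 to 10.03 on the other 6 arrays.

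At the cell surface, Cxcr4, the receptor for the chemokine Cxcl12 that guides migrating germ cells, had 111 and 53.01 on the E11.5 PGC arrays, 16.6 and 10.8 on those of Day3, 5.26 and 9.56 on those of Day6 and 9.35 and 10.1 on those of EG. Both Day6 arrays lay below both Day3 arrays, and EG overlapped Day6. Ptpre, a tyrosine phosphatase, had 70.1 and 84.6 on the E11.5 PGC arrays, 4.05 and 4.55 on those of Day3, 4.95 and 3.54 on those of Day6 and 4.87 and 4.51 on those of EG, the second widest gap (3.82), with 2 of the 6 later arrays under the floor and the other 4 near it. Cd276, an immune checkpoint ligand, had 97.1 and 119 in E11.5 PGC against 15.5 to 35.8 on the other 6 arrays. Tyrobp, the adaptor of activating receptors on macrophages and natural killer cells, had 43.3 and 34.6 in E11.5 PGC against 10.4 to 12.3 on the other 6 arrays; its 6 later arrays were nearly level.

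Downstream of G proteins, Gna14, an alpha subunit of the Gq class, had 218 and 379 on the E11.5 PGC arrays, 50.1 and 45.7 on those of Day3, 4.28 and 8.97 on those of Day6 and 17.5 and 10.1 on those of EG. Day3 kept a middle level on both arrays, with Day6 far below it and EG in between. Rgs16, which switches G alpha subunits off, had 31.5 and 32.8 in E11.5 PGC against 3.41 to 9.66 on the other 6 arrays. Gng13, a gamma subunit, Gpsm3, a G protein regulator, and Pde6b, a phosphodiesterase of rod photoreceptors, had gaps of 1.40, 1.26 and 2.60. Mark1, a kinase that acts on microtubule-associated proteins, had 350.4 and 452 on the E11.5 PGC arrays, 70.7 and 55.01 on those of Day3, 31.99 and 28.9 on those of Day6 and 17.97 and 29.7 on those of EG, and Prkar2b, a regulatory subunit of protein kinase A, had 79.9 and 93.2 on the E11.5 PGC arrays, 21.1 and 33.1 on those of Day3, 10.1 and 15.4 on those of Day6 and 8.96 and 7.49 on those of EG. In both, the Day6 and EG arrays lay below both Day3 arrays. Braf, the kinase above MEK, was the member of the signalling line that PD325901 blocks, with 72.9 and 70.8 in E11.5 PGC against 19.003 to 29.3 on the other 6 arrays.

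Small GTPases and their regulators were represented by Rhof, Rab6b, Elmo1, Fgd6 and Rgl2. Elmo1, which activates Rac with Dock proteins during migration, had 43.02 and 51.5 in E11.5 PGC against 9.24 to 16.9 on the other 6 arrays. Rab6b, a GTPase of Golgi transport, had 47.3 and 81.4 on the E11.5 PGC arrays, 17.1 and 19.07 on those of Day3, 3.23 and 7.11 on those of Day6 and 6.04 and 8.78 on those of EG, and was lowest at Day6. The kinase and phospholipase relatives Lrrk2, Stk17b, Trib2 and Plcl2 had gaps of 1.95, 1.65, 1.53 and 1.62. Stk17b, a kinase linked to apoptosis, had 334 and 336 on the E11.5 PGC arrays, 106 and 82.05 on those of Day3, 48.1 and 41.04 on those of Day6 and 96.6 and 105 on those of EG: both EG arrays were at the Day3 level, above Day6. Its difference between EG and Day6 was not called (limma adjusted p = 0.143, and 0.0644 with the array series in the fit).

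Enzymes and transporters of lipids, nucleotides and other metabolism made up 16 genes. Among them are 2 ectoenzymes of one family. Enpp2 (autotaxin), which makes lysophosphatidic acid, had 54.8 and 66.1 on the E11.5 PGC arrays, 1.99 and 2.58 on those of Day3, 4.01 and 0.826 on those of Day6 and 8.36 and 2.11 on those of EG, mostly under the floor, where the order of values is not read. Enpp3, which cleaves extracellular nucleotides, had 447 and 430.4 on the E11.5 PGC arrays, 118 and 107 on those of Day3, 15.3 and 14.3 on those of Day6 and 134 and 98.3 on those of EG, with Day6 far below Day3 and EG at the level of Day3. There are also 2 ABC transporters. Abcg1, which exports cholesterol, had 184 and 181 on the E11.5 PGC arrays, 34.4 and 19.8 on those of Day3, 10.7 and 15.3 on those of Day6 and 30.9 and 24.4 on those of EG and was lowest at Day6. Abcg2, a drug efflux pump known from side-population stem cells, had 655 and 673 on the E11.5 PGC arrays, 175 and 98.2 on those of Day3, 186 and 134 on those of Day6 and 130.3 and 163 on those of EG, with overlapping later groups.

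Mogat2, which makes diacylglycerol, had 1099 and 350.3 on the E11.5 PGC arrays, 72.3 and 15.3 on those of Day3, 45.98 and 39.2 on those of Day6 and 13.9 and 14.2 on those of EG. The 2 E11.5 PGC arrays differed 1.65 on the log2 scale, and EG lay below both Day6 arrays. Pla2g7, an enzyme that degrades platelet-activating factor, had 45.6 and 43.7 in E11.5 PGC against 3.29 to 8.93 on the other 6 arrays. Pnpla7, a lysophospholipase, had 189.6 and 179.6 on the E11.5 PGC arrays, 59.9 and 68.1 on those of Day3, 23.9 and 26.9 on those of Day6 and 41.8 and 34.9 on those of EG. Samhd1, which hydrolyses deoxynucleotides, had 649.9 and 542 in E11.5 PGC against 62.03 to 141 on the other 6 arrays, and Ctps2, a CTP synthase, had 528 and 530.0 in E11.5 PGC against 127 to 213 on the other 6 arrays; both stayed well above the array median. Slc22a18, an organic cation transporter of the imprinted region it shares with Cdkn1c, had 36.4 and 72.2 in E11.5 PGC against 1.999 to 14.6 on the other 6 arrays. Gstm3 and Gsto2 (glutathione transferases), Primpol (a primase that restarts replication), Pdp1 (a phosphatase of pyruvate dehydrogenase), Ntpcr and Mpped2 had gaps from 1.202 (Gstm3) to 1.71 (Mpped2).

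Junction, matrix, cytoskeleton and cilia genes numbered 7. Cldn5, the tight junction claudin best known from endothelium, had 105 and 80.7 on the E11.5 PGC arrays, 9.99 and 14.1 on those of Day3, 4.11 and 6.87 on those of Day6 and 13.9 and 11.96 on those of EG: Day6 was below both Day3 and EG. Pdlim3, an actin-associated protein of muscle, had 87.2 and 89.6 in E11.5 PGC against 4.59 to 28.6 on the other 6 arrays, and its EG arrays were above both Day6 and both Day3 arrays. Pls1 (fimbrin of intestine), Ttc21b (ciliary transport), Sspo (SCO-spondin), Col5a3 (a collagen chain) and Serpini1 (neuroserpin) had gaps of 1.26 to 1.65. Cell cycle regulators and ubiquitin ligases numbered 4. Cdkn1c (p57), a maternally expressed inhibitor of cyclin-dependent kinases, had 221 and 200.4 on the E11.5 PGC arrays, 57.9 and 14.4 on those of Day3, 10.4 and 15.4 on those of Day6 and 33.6 and 42.2 on those of EG. Its Day3 arrays lay far apart, so that Day3 overlapped Day6, and EG lay above Day6. Rnf182 had 207 and 168 on the E11.5 PGC arrays, 43.98 and 52.6 on those of Day3, 7.09 and 10.7 on those of Day6 and 8.65 and 5.80 on those of EG, and G2e3 and Rnf170 had gaps of 1.46 and 1.64. The other 8 genes were Crygs, Lix1, Tmco6, Psors1c2, D10Wsu102e, Dapl1, Kctd14 and Gramd3, with gaps from 1.21 in Gramd3 to 3.05 in Crygs. Of these Crygs, a crystallin of the lens, had 99.4 and 114 on the E11.5 PGC arrays, 11.46 and 11.96 on those of Day3, 2.53 and 4.35 on those of Day6 and 3.73 and 4.05 on those of EG, and D10Wsu102e had 575 and 556 on the E11.5 PGC arrays, 158 and 184 on those of Day3, 106 and 161 on those of Day6 and 61.9 and 56.3 on those of EG. Of the 84 genes, 25 fall outside the rule for named genes, such as Pdlim3 and Cd276, and were named after their values were seen, to account for every gene.

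Day6 was compared with Day3 to ask whether the losses were complete by day 3. In 40 of the 84 genes (47.6%) both Day6 arrays lay below both Day3 arrays, against 16.9% of all 20015 probes tested; in 5 (5.95%) they lay above, against 13.7%. The median log2 change of the 84 genes was -0.58, against -0.05 for all probes tested, and 70 of 84 had a negative sign against 54.5%. In the limma fit without a term for the array series, 0 of the 84 genes passed an adjusted p of 0.05, as did 0.0% of all probes in either direction. At an unadjusted p of 0.05, 24 genes were lower and 0 higher, against 4.55% and 4.36% of all probes. Once the series entered limma as a block, 13 of the 84 fell and 0 rose, against 0.829% of all probes lower and 0.974% higher. At an unadjusted p of 0.05 that fit had 35 lower and 1 higher, against 9.93% and 8.01%. By role, the 13 were 3 of the 11 germ cell genes, 2 of the 13 of transcription, chromatin and splicing, and 3 of the 25 of signalling. They also held 2 of the 16 metabolic genes and 0 of the 7 junction, matrix, cytoskeleton and cilia genes. The last were 1 of the 4 cell cycle and ubiquitin ligase genes and 2 of the 8 others. The blocked count rested on all 4 arrays of the pair: it was 0 when either Day3 or either Day6 array was left out, 10 without either E11.5 PGC array and 6 without either EG array.

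**Figure D3:**
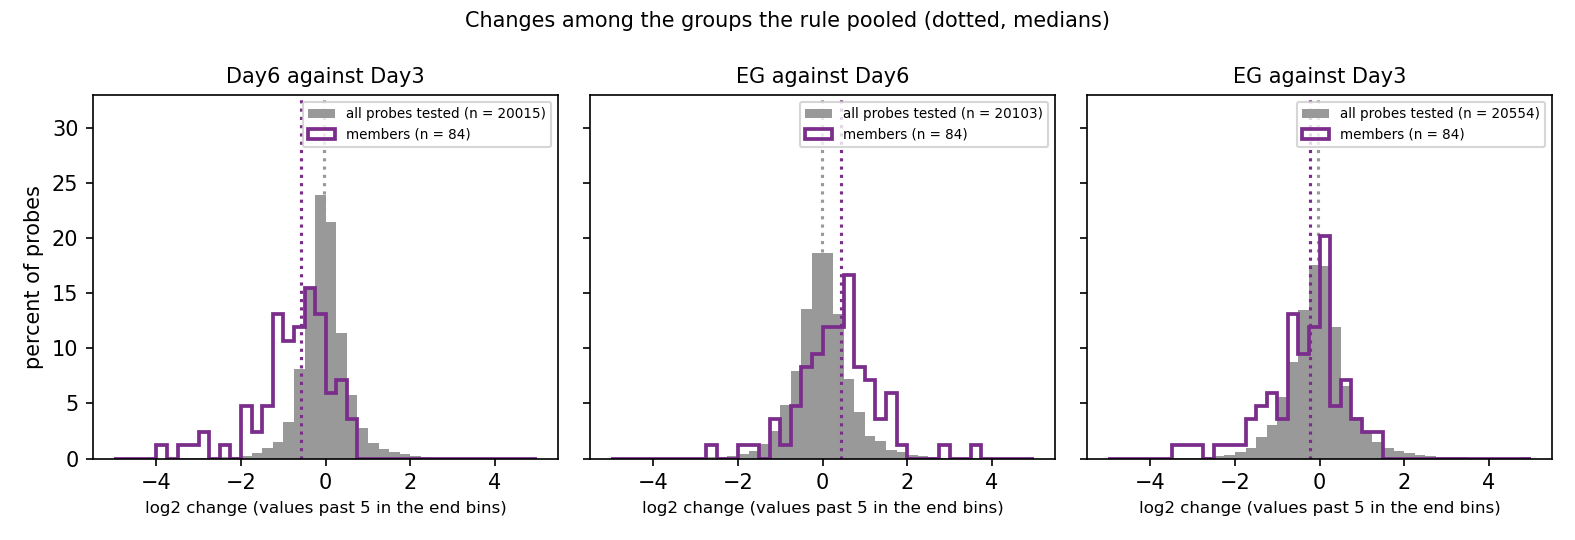
Percent of probes (y axis) by log2 change (x axis, bins of 0.25) in Day6 against Day3, EG against Day6 and EG against Day3, for all probes tested (grey) and the 84 genes (purple line), with dotted medians. The median of the 84 genes lies at -0.58, 0.44 and -0.22, and that of all probes tested at -0.05, -0.01 and -0.04.

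The widest of these second losses was in Esrp1, whose array values are given above: with the block it fell by 3.98 ± 0.54 on the log2 scale (standard error, 2 arrays per group; limma adjusted p = 0.0828 without the block and 0.0306 with it). The change was -4.43 within series A and -3.54 within series B. Dnd1 fell by 3.48 ± 0.22 (limma adjusted p = 0.0634 and 0.0151), with -3.72 and -3.23 within the series. Cpeb1 fell by 3.23 ± 0.24 (limma adjusted p = 0.0634 and 0.0161), with -3.14 and -3.32. These 3 genes encode proteins that bind RNA. Gna14 fell by 2.95 ± 0.38 (limma adjusted p = 0.098 and 0.03) and Enpp3 fell by 2.92 ± 0.22 (limma adjusted p = 0.0634 and 0.0161). Rnf182 fell by 2.47 ± 0.30, with a limma adjusted p of 0.0779 and 0.0284. The series agreed closely for Enpp3 (-2.94 and -2.89) and less for Gna14 (-3.55 and -2.35).

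The other 7 that fell with the block were Rab6b (a log2 change of -1.91), Crygs (-1.82), Igfbpl1 (-1.82), Tmco6 (-1.77), Hey1 (-1.65), Stag3 (-1.65) and Pnpla7 (-1.33), with blocked limma adjusted p-values from 0.0305 to 0.0466. Every one of the 13 was lower at Day6 within both series. One Day6 array of Rab6b (3.23) and one of Crygs (2.53) lay under the floor, so the sizes given for these genes rest on values whose order is not read. Tmco6 had 161 and 164 on the E11.5 PGC arrays, 61.5 and 44.9 on those of Day3, 16.9 and 14.04 on those of Day6 and 40.1 and 53.9 on those of EG, the same shape as Stag3, with EG between Day3 and Day6 or at Day3. The 5 genes whose Day6 arrays lay above both Day3 arrays were Ebi3, Id4, Mkx, Lrrk2 and Mns1, and none of them passed limma's test in this direction, with or without the block. Fibroblast markers summed to 193 at Day3 and 1106 at Day6 in series A, and to 390.4 and 91.9 in series B. Their part in the change of the 13 genes was not tested.

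**Figure D4:**
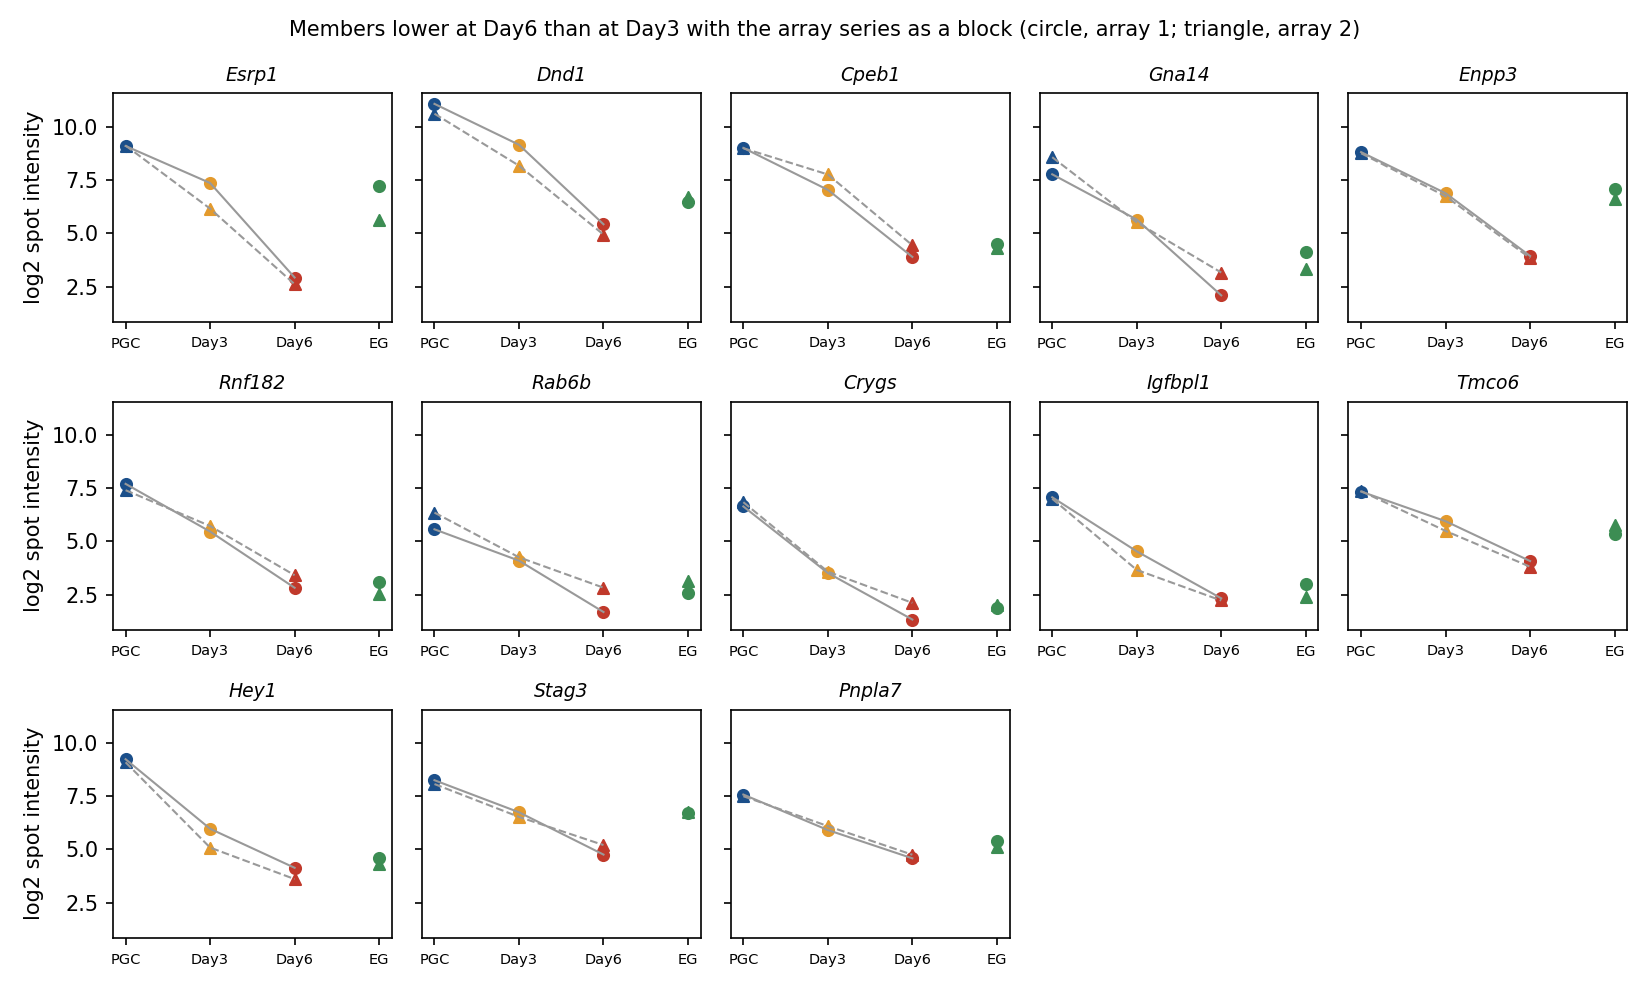
Log2 spot intensity (y axis) of the 13 genes that fell from Day3 to Day6 in the blocked limma fit, by group (x axis); circles are array 1, triangles array 2, and lines join arrays of one series. In each panel both Day6 arrays lie below both Day3 arrays, with mean changes from -1.33 (Pnpla7) to -3.98 (Esrp1).

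EG was compared with Day6 to ask how the levels in the established pluripotent cells stood to those of day 6; that EG lay under E11.5 PGC was fixed by the choice of genes. This comparison shares the Day6 arrays with the one before, so the values of the 2 are set side by side and not correlated. In 35 of the 84 genes (41.7%) both EG arrays lay above both Day6 arrays, against 23.4% of all 20103 probes tested, and in 11 (13.1%) they lay below, against 22.8%. The median log2 change was 0.44, against -0.01 for all probes tested. In limma 1 gene rose, Enpp3, and 0 fell, against 0.139% and 0.0298% of all probes; at an unadjusted p of 0.05, 17 were higher and 7 lower, against 7.06% and 5.96%. With the block 4 rose and 1 fell, against 1.25% and 0.716%.

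Enpp3 rose by 2.95 ± 0.27 on the log2 scale (limma adjusted p = 0.026; with the block 2.91 ± 0.24, adjusted p = 0.0195), to the level it had at Day3. The call was lost, with an unblocked count of 0, when any 1 of the 8 arrays was left out. With the block, Esrp1 rose by 3.38 ± 0.58 (limma adjusted p = 0.0719 without it and 0.0471 with it). Stag3 rose by 1.76 ± 0.25 (limma adjusted p = 0.0701 and 0.0356) and Tmco6 by 1.48 ± 0.26 (limma adjusted p = 0.103 and 0.0479). All 4 had fallen from Day3 to Day6 with the block, so their low point was Day6, and in EG they stood within or near their Day3 range. Msx2 fell by 2.96 ± 0.46 (limma adjusted p = 0.153 and 0.0428). The blocked counts stood at 4 and 1 without either E11.5 PGC array. Without either Day3, either Day6 or the first EG array both were 0, and without the second EG array 1 gene was higher and 0 lower.

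EG against Day3, the third comparison, asks what remained of the day-3 level; it shares arrays with both others. Both EG arrays lay below both Day3 arrays in 37 of 84 genes (44.0%), against 27.6% of all 20554 probes tested, and above them in 11 (13.1%), against 22.4%. The median change was -0.22, against -0.04 for all probes tested. In limma 2 genes fell and 0 rose, against 0.37% and 1.05% of all probes; with the block 11 fell and 1 rose, against 2.5% and 3.18%. At an unadjusted p of 0.05 the first fit had 20 lower and 6 higher, against 8.0% and 7.78%. Cpeb1 fell by 3.00 ± 0.34 (limma adjusted p = 0.0158; with the block 2.79 ± 0.26, adjusted p = 0.00847). Rnf182 fell by 2.76 ± 0.34 (limma adjusted p = 0.0192; with the block 2.67 ± 0.32, adjusted p = 0.0142). Leaving out either Day3 array or either EG array took the adjusted p of both genes over 0.05; without Day3 array 2 the count was 1, through Msx2, and without either Day6 array it was 6.

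With the block, Msx2 fell by 2.77 ± 0.46 and Dnd1 by 2.39 ± 0.24 (limma adjusted p = 0.0285 and 0.00982, against 0.12 and 0.0612 without the block). Igfbpl1, Prkar2b, Crygs, D10Wsu102e, Zfp105, Hey1 and Plcl2 fell by 1.16 (Plcl2) to 1.56 (Igfbpl1) (both EG arrays of Crygs were under the floor), with blocked limma adjusted p-values from 0.0265 to 0.0487. Ebi3 was the gene that rose, by 1.37 ± 0.25 (limma adjusted p = 0.148 without the block and 0.0338 with it). It stood at 9.93 and 9.62 in EG, and its lower Day3 array was under the floor. The blocked count of genes that fell was 9 without either E11.5 PGC array, 12 without either Day6 array, 3 without Day3 array 2, 2 without EG array 1, and 0 without Day3 array 1 or EG array 2. The blocked call of Ebi3 was lost in each fit that left out a Day3 or an EG array.

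By array order alone, the 84 genes fell into a few courses after the first loss. In 20 genes Day6 was below Day3 and EG was above Day6, among them Dnd1, Esrp1, Enpp3, Stag3, Hey1, Hmgn5, Cldn5 and Abcg1. In 16 Day6 was below Day3 and EG overlapped Day6, among them Runx1t1, Cpeb1, Rnf182, Mark1 and Cxcr4. In 4 each step was down: Asz1, Plcl2, Prkar2b and Zfp105. In 22 the arrays overlapped at both steps, among them Lhx1, Ptpre, Igf2, Abcg2 and Tyrobp; of these Lhx1, Igf2 and Tyrobp had both EG arrays below both Day3 arrays, for Lhx1 under the floor. Over all 19716 probes measured on the 6 later arrays, these 4 courses took 7.61%, 6.53%, 2.87% and 42.2%, in the order given. Both steps use the Day6 arrays, so a low pair of Day6 arrays by itself gives the first course, and nothing more is read from these counts.

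Read against lists of genes by pathway or cell type, 26 of the 84 stood in a list and 58 in none. Over all genes measured on the 8 arrays, 84 of 14030 met the rule. At that share lists of these sizes would hold few genes or none, so the counts are not read as pathways hit or spared. The list of early germ cell factors held 4 (Dnd1, Cxcr4, Lhx1 and Elmo1) of its 26 measured genes, the lipid list 4 of 53 (Mogat2, Pnpla7, Abcg1 and Pla2g7), and the imprinted list 3 of 47 (Igf2, Cdkn1c and Slc22a18). The BMP list held 2 of 27 (Id4 and Msx2), the Nodal and TGF-beta list 1 of 30 (Skil), the Notch and Hedgehog list 1 of 19 (Hey1), the meiosis list 1 of 23 (Stag3) and the list of later germ cell and piRNA genes 1 of 31 (Asz1). None stood in the lists of FGF and MEK/ERK signalling (39 measured genes), the Wnt pathway (39), Hox clusters (29) or core and naive pluripotency (27); Braf was not in the list of FGF and MEK/ERK signalling.

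The other genes of the later and early germ cell, Nodal and TGF-beta, and imprinted lists were followed against E11.5 PGC in the same way. Of the other 30 later germ cell genes, limma called 0 lower at Day3, 8 at Day6 and 9 in EG, and 0 higher at any of the 3. All probes gave 0.754%, 4.28% and 5.61% lower and 1.33%, 4.34% and 5.57% higher. With the block 6, 13 and 14 were lower and 0, 0 and 1 higher, against 4.0%, 14.3% and 14.4% of all probes lower and 4.34%, 9.5% and 9.24% higher. At an unadjusted p of 0.05 the unblocked counts were 6, 11 and 17 lower and 0 higher, against 7.78%, 14% and 16.2% of all probes lower and 6.65%, 9.99% and 11.2% higher. Their median log2 difference from E11.5 PGC was -0.36 at Day3, -0.996 at Day6 and -1.22 in EG. Of the other 22 early germ cell genes limma called 0 lower at Day3, 2 at Day6 and 2 in EG, and 1, 2 and 2 higher. With the block 2, 4 and 4 were lower and 1, 3 and 4 higher, and at an unadjusted p of 0.05 Day3 had 2 lower and 2 higher. Of the other 29 Nodal and TGF-beta genes 1, 4 and 3 were lower and 0, 3 and 3 higher; with the block 4, 9 and 5 were lower and 0, 6 and 5 higher, and at an unadjusted p of 0.05 Day3 had 7 lower and 2 higher. Of the other 44 imprinted genes 0, 5 and 4 were lower and 3, 4 and 5 higher; with the block 3, 9 and 9 were lower and 5, 6 and 8 higher, and at an unadjusted p of 0.05 Day3 had 5 lower and 5 higher. For the meiosis, lipid, BMP, and Notch and Hedgehog lists, only the blocked counts at Day6 are given. Of the other 22 meiosis genes 8 were lower and 0 higher, and of the other 49 lipid genes 7 and 14. Of the other 25 BMP genes 8 were lower and 5 higher, and of the other 18 Notch and Hedgehog genes 1 and 5. Since the choice of the 84 genes removed the earliest losses from each list, these counts describe the rest and are not a comparison with the 84.

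Some members are also markers of other cell types, and those markers were examined beside them. Lhx1 marks nephric duct and mesonephros: without it, the 4 measured markers of the list summed to 92.2 and 66.1 in E11.5 PGC and to 44.3 to 94.7 on the later arrays. Pax8 stood at 23.5 and 20.7 in E11.5 PGC against 4.48 to 6.80 later. Pax2 overlapped between the groups, and so did Gata3, with 15.9 and 8.13 in E11.5 PGC and 7.18 to 33.5 later. Ret had no value on E11.5 PGC array 1 and 1.47 on array 2. Of the other 11 genes of the wider list, limma called 1 lower and 0 higher at each of Day3, Day6 and EG, against 0.754%, 4.28% and 5.61% of all probes lower. At an unadjusted p of 0.05 Day3 had 3 lower and 0 higher, against 7.78% and 6.65%. Cldn5 marks endothelium: without it, the list summed to 237 and 423 in E11.5 PGC and to 90.9 to 235 later. The largest part was Pecam1, which germ cells express too. Tek went the other way from Cldn5, at 1.74 and 1.91 in E11.5 PGC and 3.22 to 21.5 later. Cdh5 was at 2.61 on the 1 E11.5 PGC array that measured it. Kdr (23.7 and 18.2 in E11.5 PGC, 12.7 to 21.8 later), Esam, Tie1 and Emcn overlapped between the groups. Tyrobp marks macrophages: without it, the list summed to 125 and 184 in E11.5 PGC and to 136 to 359 later. The largest single part of that sum on every array was Cd68, at 64.2 and 73.6 in E11.5 PGC and 283 and 307 in EG. Ptprc was at 4.87 and 5.74 in E11.5 PGC and at 2.81 to 4.53 later, and C1qa at 5.03 and 31.3 in E11.5 PGC and at 1.37 to 2.68 later, like Tyrobp lower on every later array. All later values of C1qa and some of Ptprc were under the floor. Csf1r overlapped between the groups, with 25.9 and 38.0 in E11.5 PGC and 22.6 to 39.4 later. So did Aif1, with 24.9 and 35.1 in E11.5 PGC and 21.2 to 28.9 later. Of the other 21 genes of the wider list of blood and macrophages, limma called 0 lower and 0 higher at Day3, against 0.754% and 1.33% of all probes. With the block 5 were lower and 0 higher, against 4.0% and 4.34%. At an unadjusted p of 0.05 the unblocked fit had 6 and 0, against 7.78% and 6.65%. At Day6 the unblocked fit called 0 lower and 2 higher, and the blocked fit 5 and 2. In EG both fits called 2 lower and 3 higher. The shares of all probes for Day6 and EG are given above. The part of such cells in the values of Lhx1, Cldn5 and Tyrobp was not tested.

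Of the 84 genes, 5 pairs lay within 10 protein-coding genes of each other in the GRCm38.p6 gene order. No such count was made for other sets of genes, so the pairs are listed and not read as clustering. Cdkn1c and Slc22a18 are neighbours in a well-known imprinted domain, and Igf2 lies 8 genes from Cdkn1c, in the adjoining one. None of the 8 genes between met the rule. Ins2 was lower on every later array, with 30.2 and 25.8 in E11.5 PGC against 13.8 to 18.4, but its gap of 0.48 fell short of the threshold. The others had negative gaps, and Cd81 was at 200.4 and 104 in E11.5 PGC and at 1698 and 970.4 at Day3, a log2 difference of 3.15. Tmco6 and Dnd1 are 3 genes apart, and both were lowest at Day6, which was true of 53 of the 84 genes. Of the 3 genes between them, Wdr55 had a gap of 0.68, Ndufa2 of 0.05 and Ik of -0.43. Esrp1, Pdp1 and Runx1t1 lie in 1 run, 6 and 5 genes apart; the 7 measured genes between them had negative gaps, from -0.44 for Virma to -2.45 for Gem.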

How the data were processed

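Total RNA of 8 samples in 4 groups of 2 was amplified, labelled with Cy5 and hybridised to TORAY arrays, per the labels' protocols. The deposited values are linear spot intensity, with array medians near 20; how background was corrected, how arrays were scaled and why cells are missing is not given in the sources used here. Values were taken to log2 with no further normalization (the deposited intensity is not on a log2 scale), and missing cells stayed missing. Of 23473 probes, 16631 carried a symbol (12622 current, 3947 updated through synonyms of the RefSeq gene table, 62 kept), and 14211 of these, of 14030 genes, had all 8 values. The brightest qualifying probe stood for a gene.

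Comparisons used limma 3.58.1 in R 4.3.3, on all 8 arrays and 4 groups, two-sided, with Benjamini-Hochberg adjustment over all probes measured on both arrays of both groups; the fit was tested on simulated data. The array series was added as a block in an alternative fit. Array names in the labels pair replicates 1 and 2 of E11.5 PGC, Day3 and Day6; across 19524 probes their deviations from group means correlated at 0.62, 0.55 and 0.69. Both EG arrays are in series A, so blocked EG values assume 1 series difference for all groups. With 2 arrays a group, their number limits the precision.

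The genes and the lists were chosen with earlier results of these data known. Named genes are the 30 with the widest gap, the 20 brightest in E11.5 PGC, every list member, up to 10 called in each direction of each comparison, and the 5 on either side of the gap threshold. Alternatives were quantile normalization, centring, a pseudocount of 2, trend and robust variance, the dimmest 25% of probes left out, each array left out and other thresholds. Blocked fits with a second change were added after the data were seen.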

Additional observations from a re-analysis of the deposited data

How the results depend on the processing

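The rule gave 84 genes, and 75 with quantile normalization, 78 with centring and 78 with a pseudocount of 2 (74, 77 and 77 shared). It gave 208 with a gap of 0.8, 24 with a gap of 2, 240 from series A alone and 319 from series B alone (81 and 80 shared), and 87 to 152 with 1 array left out. Genes lower at Day6 than at Day3 numbered 0; there were 13 with the array series as a replicate block, 4 with a pseudocount, 3 with a robust variance trend, and 10, 17 and 17 with the block and quantile normalization, a pseudocount or no dim probes (0 to 10 with 1 array left out). For EG against Day6 the count of 1 higher became 4 with the block, 2 with a pseudocount, 2 with trend and 0 on the 4 arrays alone, and 2, 7 and 6 with the 3 blocked changes (0 to 4 with 1 array left out); the count of 0 lower became 1 with the block, and 3 with the block and a pseudocount and 1 without dim probes (0 to 1). For EG against Day3 the count of 2 lower became 11 with the block, 7 with a pseudocount, 6 with trend and 4 without dim probes, 8, 16 and 13 with the blocked changes, and 9 with the block and without either E11.5 PGC array (0 to 12 with 1 array left out); the count of 0 higher became 1 with the block, and 1, 2 and 2 (0 to 2). The median change from Day6 to EG was 0.24 to 0.50 with 1 array left out. The smaller counts with an array left out come with fewer samples; the cause of the other differences was not tested. No change of sign occurred in any called value. Signals near the floor of 4.24 limit 19 of the 84 genes, in which at least 1 later array lay under it.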

Other observations

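A further 6 genes had the same gap but at least 1 missing cell, and were left out by the rule. Umodl1, also known as olfactorin, had intensities of 90.7 and 112 on the E11.5 PGC arrays, 4.10 and 3.49 on those of Day3, 2.12 and 1.05 on those of Day6, and 1.18 on the 1 EG array that measured it. Isl2, a LIM homeobox factor of motor neurons, had 140.4 and 210.4 on the E11.5 PGC arrays, 25.2 and 37.2 on those of Day3, 2.31 and 4.74 on those of Day6, and no value in EG. Scgn, a calcium-binding protein, had 51.1 and 48.1 in E11.5 PGC and 1.76 to 4.66 on the 5 later arrays that measured it. Bcl11a, a zinc finger factor of blood and brain, had 32.2 and 53.5 in E11.5 PGC and 2.07 to 3.16 on the 3 later arrays with a value. Asb4 and Nutm1, the latter a testis gene, had gaps of 3.38 and 2.07. Why cells are missing is not known, so these genes carry no fold and no test.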
